A study of Mus musculus with 9 samples.

Results

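The Hox genes were described here as marks of body position in 9 bulk RNA sequencing libraries of mouse aorta. They were chosen by name alone, as every listed gene called Hox a, b, c or d with a number, and 30 of the 17179 gene symbols in the 9 tables met this rule. RefSeq (GRCm38.p6) holds 39 such genes, and Hoxa11, Hoxb1, Hoxb13, Hoxc11, Hoxc12, Hoxc13, Hoxd1, Hoxd11 and Hoxd12 were listed in no library. Hox genes encode homeodomain transcription factors that lie in 4 clusters, A to D, and genes with the same number in different clusters are called paralogues. Within a cluster, low numbers are used from the head end of the body onward and high numbers only towards the tail, and adult smooth muscle cells and fibroblasts keep much of the Hox pattern of the place where they arose. In the aorta the arch and ascending part are known for a different Hox pattern from the descending thoracic and abdominal parts.

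All mice were C57BL/6J and were killed on day 28, and neither their age nor the stretch of aorta taken is stated in the labels used here. The 2 normal libraries came from mice that drank distilled water. The 2 BAPN libraries came from mice fed β-aminopropionitrile (BAPN) at 1 g/kg/day, a lysyl oxidase inhibitor that weakens collagen and elastin cross-links and was used to induce aortic dissection. The other treatments were all given on top of the same BAPN feeding. The 2 TPA libraries came from mice injected intraperitoneally with the phorbol ester TPA, which activates the transcription factor AP-1, at 50 ng/g/day from day 1. The 2 T-5224 libraries, titled 2 weeks (replicate 1) and 3 weeks (replicate 2), came from mice gavaged with the AP-1 inhibitor T-5224 at 5 mg/kg/day from day 7 or 14. The single coQ10 library (coenzyme Q10, written in the labels in a form read here as coQ10) came from gavage at 10 mg/kg/day from day 7 or 14. The labels do not say whether libraries of a group came from separate animals or from pools of them, so p-values measure only the spread between these libraries, which may be technical.

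Values are FPKM, fragments scaled to transcript length and to the library's total, which allow levels of different genes within a library to be compared. The spacing of the lowest values put 1 fragment in a 1 kb transcript at 0.086 to 0.13 FPKM, depending on the library. By this estimate 1 FPKM of a 2 kb transcript rested on about 15.4 to 23.3 fragments and 0.05 FPKM on about 1. The step was searched for only within a preset range, so the estimate could not fall outside it. For T-5224 replicate 2 it rested on 79 values, the fewest. All 25 Hox genes listed in that library had at least 0.5 FPKM, so its depth is uncertain and may be lower. Haemoglobin genes took 1.03 to 74.1% of a library's FPKM sum, which itself ran from 502238 to 1802047. The 10 smooth muscle markers were all listed in all 9 libraries, but so were 12834 of the 17179 symbols, so this does not identify the tissue. The mean log2(FPKM + 1) of these markers was 8.48 and 9.37 in normal, 6.15 and 5.02 with BAPN alone, 7.04 and 7.36 with TPA, 8.53 and 6.84 with T-5224 and 8.43 with coQ10. Markers of other tissues differed widely between libraries, also within groups. The 11 airway and alveolar markers had a summed FPKM of 19503 and 41.5 in normal, 26.7 and 21.7 with BAPN alone, 15947 and 7392 with TPA, 23.2 and 5023 with T-5224 and 30.5 with coQ10. The 9 cardiac muscle markers had 11297 and 55.2 in normal, 30.0 and 60.1 with BAPN alone, 3568 and 892 with TPA, 47.9 and 1570 with T-5224 and 65.8 with coQ10. Normal replicate 1, both TPA libraries and T-5224 replicate 2 were thus high in both lists.

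The listed members comprised 10 of 11 Hox A genes, 8 of 10 Hox B genes, 6 of 9 Hox C genes and 6 of 9 Hox D genes. By GRCm38.p6 positions the A cluster lies on chromosome 6, and the B cluster spans chr11:96194316-96368254, C chr15:102921131-103036856 and D chr2:74668225-74765142. Of the 30 listed genes, 21 were listed in all 9 libraries, 18 reached 5 FPKM in at least 1 library and 22 had a mean of at least 1 FPKM over the 9 libraries. The annotated exons of 14 listed genes overlap those of another gene in GENCODE M21, in 9 cases with a gene on the opposite strand, and no label or header used here says whether the counting used strand. Among these, Hoxc5 and Hoxc10 share 166 exon bases and Hoxd3 and Hoxd4 share 388, so the split of fragments within each of those pairs is uncertain.

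The upstream sequences of 5 members are shown because the results below turn on these genes: Hoxa3 is the head-end gene with the widest range, Hoxc4 the cluster C gene that went against its neighbours in number, and Hoxa5, Hoxd9 and Hoxd10 the genes that set T-5224 replicate 2 apart. Each is the 250 bases before the RefSeq start site (GRCm38.p6), 5′ to 3′ on the gene's strand, with CpG dinucleotides in capitals. Their positions are chr6:52213068-52213317 on the minus strand for Hoxa3, chr6:52204588-52204837 on the minus strand for Hoxa5, chr15:103034145-103034394 on the plus strand for Hoxc4, chr2:74697513-74697762 on the plus strand for Hoxd9 and chr2:74691641-74691890 on the plus strand for Hoxd10. The start sites used for Hoxc4 and Hoxd10 lie 16298 and 7618 bases inside the annotated span of the gene, so these 2 stretches are within the gene and not before its outermost start.
Hoxa3: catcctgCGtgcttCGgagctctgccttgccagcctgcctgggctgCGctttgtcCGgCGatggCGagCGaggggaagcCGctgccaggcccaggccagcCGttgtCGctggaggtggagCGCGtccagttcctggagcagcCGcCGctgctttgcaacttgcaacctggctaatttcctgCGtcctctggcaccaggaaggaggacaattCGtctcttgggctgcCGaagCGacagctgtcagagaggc
Hoxa5: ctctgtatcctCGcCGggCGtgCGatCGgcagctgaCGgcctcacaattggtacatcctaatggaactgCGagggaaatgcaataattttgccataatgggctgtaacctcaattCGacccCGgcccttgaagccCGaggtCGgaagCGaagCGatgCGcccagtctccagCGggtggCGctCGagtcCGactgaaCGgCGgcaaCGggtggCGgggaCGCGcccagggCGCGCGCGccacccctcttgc
Hoxc4: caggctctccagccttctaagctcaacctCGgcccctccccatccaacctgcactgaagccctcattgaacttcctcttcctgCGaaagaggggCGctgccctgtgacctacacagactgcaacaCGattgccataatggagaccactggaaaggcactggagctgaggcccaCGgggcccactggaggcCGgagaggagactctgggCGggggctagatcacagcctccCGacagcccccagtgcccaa
Hoxd9: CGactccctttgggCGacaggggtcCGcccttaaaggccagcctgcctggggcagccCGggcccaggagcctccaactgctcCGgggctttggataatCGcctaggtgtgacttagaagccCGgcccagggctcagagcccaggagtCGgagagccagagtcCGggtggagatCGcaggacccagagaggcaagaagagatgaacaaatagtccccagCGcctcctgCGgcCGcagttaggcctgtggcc
Hoxd10: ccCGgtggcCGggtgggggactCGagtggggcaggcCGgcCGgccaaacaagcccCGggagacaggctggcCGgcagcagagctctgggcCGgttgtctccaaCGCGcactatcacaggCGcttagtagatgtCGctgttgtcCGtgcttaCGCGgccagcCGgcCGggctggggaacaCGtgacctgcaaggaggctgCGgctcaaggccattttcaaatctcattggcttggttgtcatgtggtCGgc
The capitals mark 18 CpG dinucleotides in the Hoxa3 stretch, 28 in Hoxa5, 8 in Hoxc4, 13 in Hoxd9 and 20 in Hoxd10. Upstream stretches were matched for 22 Hox genes, 17 of them listed, and the listed ones held a median of 12 CpG, from 3 to 35, against a median of 6 over the 27025 gene promoters of the same length. The Cdx-type motif TTTATG, on either strand, was present in 4 of these 17 stretches (23.5%) and in 11.1% of all 27025, and the homeodomain core TAATTA in 0 of 17 and in 4.90% of all. These matches describe letters in a short window only.

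Members were grouped by paralogue number into anterior (1 to 4), middle (5 to 8) and posterior (9 to 13) genes, with 10, 11 and 9 listed members. To compare libraries without regard to how each was scaled, the FPKM of each group was expressed as a percent of that library's own summed Hox FPKM. This sum was 112.43 and 189.88 FPKM in normal, 92.29 and 79.86 with BAPN alone, 74.54 and 87.21 with TPA, 184.25 and 218.06 with T-5224 and 120.56 with coQ10. It was highest in T-5224 replicate 2 and lowest in TPA replicate 1, and the T-5224 libraries lay above both BAPN and both TPA libraries. This order depends on the scaling. As a share of all FPKM in the library, the Hox sum was 0.0194 and 0.0378% in normal, 0.00565 and 0.00443% with BAPN alone, 0.00509 and 0.00595% with TPA, 0.0200 and 0.0199% with T-5224 and 0.0196% with coQ10, highest in normal replicate 2 and lowest in BAPN replicate 2. With the haemoglobin genes left out of the total, normal replicate 2 was again highest at 0.0382% and TPA replicate 1 lowest at 0.0167%.

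The libraries differed in which end of the Hox series carried the signal. Anterior genes made up 66.5 and 53.1 in normal, 35.8 and 24.7 with BAPN alone, 56.7 and 51.3 with TPA, 66.3 and 26.2 with T-5224 and 68.0 with coQ10 percent of the Hox sum. Posterior genes made up 1.31 and 3.53 in normal, 12.2 and 23.1 with BAPN alone, 6.31 and 6.73 with TPA, 1.74 and 12.3 with T-5224 and 1.57 with coQ10 percent. Both BAPN libraries and T-5224 replicate 2 therefore had the lowest anterior and the highest posterior shares of the 9, and the normal, coQ10 and T-5224 replicate 1 libraries had the lowest posterior shares. The groups normal and BAPN did not overlap on either measure, with posterior shares of 2.42 ± 1.57% (SD, n = 2) and 17.6 ± 7.71% (SD, n = 2). Shares within a library add up to the whole, so a lower anterior share by itself raises the others. In FPKM, anterior genes summed to 74.73 and 100.79 in normal and 33.04 and 19.76 with BAPN alone. Middle genes summed to 36.23 and 82.38 against 48.02 and 41.67, which overlapped, and posterior genes to 1.47 and 6.71 against 11.23 and 18.43. No test was made of these shares, since an exact permutation test of 2 libraries against 2 cannot go below p = 0.333. In bulk tissue, fewer cells of a type and less RNA per cell cannot be told apart, so a share does not say how many cells carried it.

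**Figure D1:**
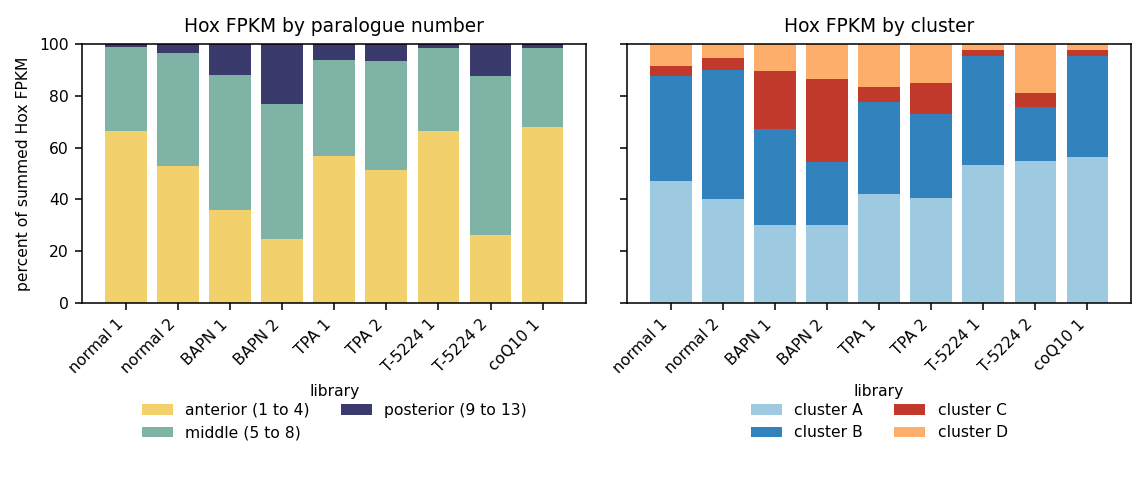
Stacked bars give the percent of each library's summed Hox FPKM (y axis) carried by anterior, middle and posterior paralogues (left) and by clusters A to D (right), with 1 bar per library. The posterior block reaches 12.2 and 23.1% in the BAPN libraries and 12.3% in T-5224 replicate 2 and stays under 7% elsewhere, and the cluster C block reaches 22.5 and 31.9% in the BAPN libraries and at most 11.8% elsewhere.

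A mean paralogue number, each gene weighted by its FPKM, was 4.05 and 4.48 in normal, 5.65 and 6.33 with BAPN alone, 4.53 and 4.78 with TPA, 4.00 and 5.53 with T-5224 and 3.95 with coQ10. This number thus ran from 3.95 in the coQ10 library to 6.33 in BAPN replicate 2. Paralogue group 3 carried 24.0 and 23.3% of the Hox sum in the normal libraries and 6.63 and 6.10% in the BAPN libraries. Paralogue group 9 carried 1.22 and 3.03% in the normal libraries and 8.79 and 16.6% in the BAPN libraries, so the 2 ends of the series differed in opposite directions between these groups. Genes of paralogue group 13 never reached more than 0.121% of a library's Hox sum.

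The lower anterior share with BAPN was present inside clusters A, B and D taken alone, but not inside cluster C. Anterior genes made up 66.6 and 56.8% of the cluster A sum in the normal libraries and 34.9 and 27.1% in the BAPN libraries, and 76.5 and 56.2% of the cluster B sum in the normal libraries against 41.9 and 34.3% in the BAPN libraries. For cluster D this share was 17.2 and 14.2% with BAPN alone, below the normal values of 28.9 and 33.1%. For cluster C the normal values, 43.2 and 8.87%, lay on either side of the BAPN values, 35.3 and 19.7%. Posterior shares of cluster D overlapped (normal 10.5 and 25.9%, BAPN 25.5 and 30.4%). Those of cluster C did not (normal 1.14 and 8.27%, BAPN 20.2 and 46.6%). Cluster C as a whole was also larger in BAPN. Its genes made up 3.91 and 4.46 in normal, 22.5 and 31.9 with BAPN alone, 5.89 and 11.8 with TPA, 2.46 and 5.20 with T-5224 and 2.18 with coQ10 percent of the Hox sum, so that no other library reached either BAPN value. With cluster C left out, posterior shares were 1.31 and 3.31% in the normal, 9.84 and 12.1% in the BAPN, 6.23 and 6.25% in the TPA, 1.64 and 11.9% in the T-5224 and 1.56% in the coQ10 library, an alternative chosen after seeing the data. The order of normal below TPA below BAPN was thus also present without cluster C.

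Genes of paralogue group 13 were listed in 3 of the 9 libraries and those of group 10 in all 9. At any value above 0 the highest paralogue number was 10 in 6 libraries and 13 in normal replicate 2, BAPN replicate 2 and TPA replicate 1, where Hoxa13 or Hoxd13 was listed at 0.04 to 0.09 FPKM, about 1 or 2 fragments. At a minimum of 1 FPKM the highest number was 10 in both BAPN libraries and T-5224 replicate 2, 9 in normal replicate 2 and both TPA libraries, and 8 in normal replicate 1, T-5224 replicate 1 and the coQ10 library. At this minimum BAPN replicate 1 held 3 posterior genes and BAPN replicate 2 held 5. The ranking of libraries by this measure therefore changed with the minimum.

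**Figure D2:**
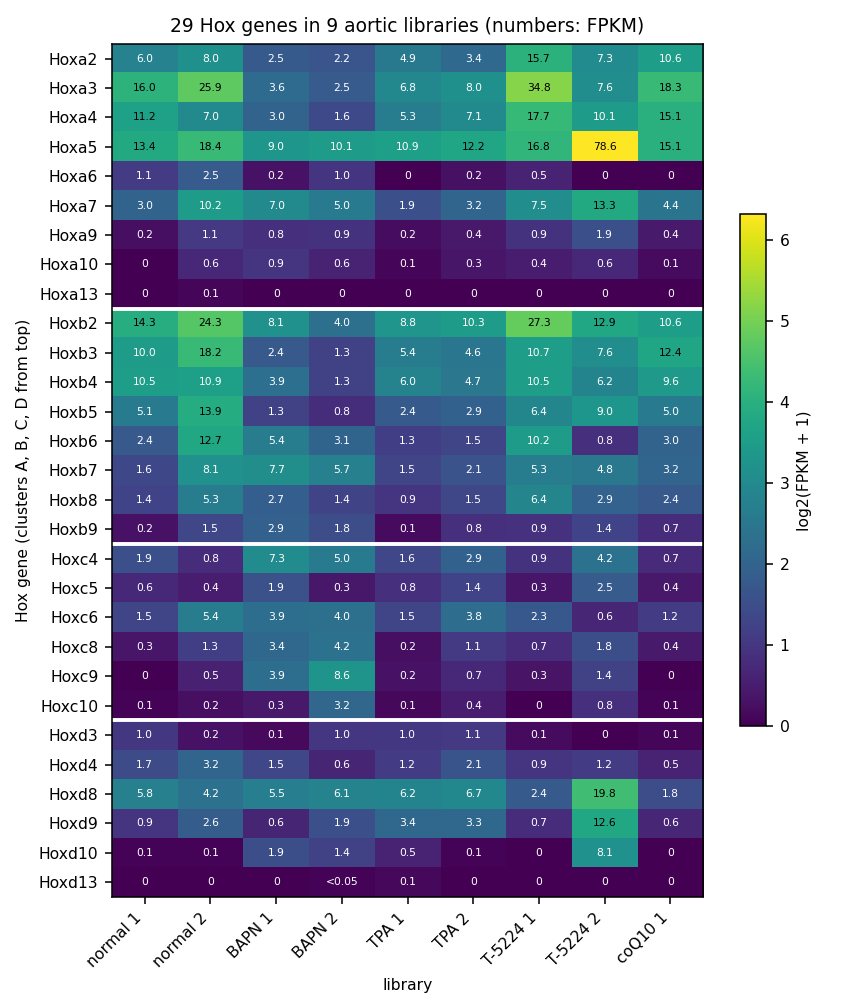
Colour gives log2(FPKM + 1) and printed numbers give FPKM for 29 of the 30 listed Hox genes (rows, by cluster and number, clusters separated by white lines) in the 9 libraries (columns). Low-numbered A and B genes are dim in the 2 BAPN columns, Hoxc4, Hoxc8 and Hoxc9 are brightest there, and Hoxa5, Hoxd8, Hoxd9 and Hoxd10 are brightest in T-5224 replicate 2.

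Among the anterior genes, those of clusters A and B shared 1 pattern. Hoxa2, needed in the embryo for the second pharyngeal arch, had 5.97 and 7.96 FPKM in normal, 2.45 and 2.19 with BAPN alone, 4.87 and 3.44 with TPA, 15.67 and 7.28 with T-5224 and 10.6 with coQ10. Hoxa3, known for its role in the third pharyngeal arch, thymus and carotid arteries, had 16.01 and 25.89 FPKM in normal, 3.64 and 2.53 with BAPN alone, 6.77 and 7.99 with TPA, 34.8 and 7.62 with T-5224 and 18.33 with coQ10. Both genes were lowest in the BAPN libraries and highest in T-5224 replicate 1, and BAPN did not overlap normal for either. Values of Hoxa4 were 11.15 and 6.99 FPKM in normal, 3.01 and 1.61 with BAPN alone, 5.29 and 7.11 with TPA, 17.73 and 10.14 with T-5224 and 15.08 with coQ10. Hoxa4 was again lowest in BAPN, and both TPA libraries lay above both BAPN libraries for Hoxa2, Hoxa3 and Hoxa4. The share of all genes with both TPA libraries above both BAPN libraries is not given here.

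The cluster B genes of the same numbers followed. Hoxb2 stood at 14.33 and 24.26 FPKM in normal, 8.13 and 4.03 with BAPN alone, 8.78 and 10.32 with TPA, 27.3 and 12.87 with T-5224 and 10.62 with coQ10. Hoxb3 (chr11:96307101-96347930), a paralogue of Hoxa3, stood at 9.96 and 18.19 FPKM in normal, 2.37 and 1.34 with BAPN alone, 5.41 and 4.62 with TPA, 10.73 and 7.59 with T-5224 and 12.36 with coQ10. For Hoxb4, widely known from blood stem cell work, the values were 10.47 and 10.9 FPKM in normal, 3.93 and 1.32 with BAPN alone, 6.03 and 4.67 with TPA, 10.48 and 6.2 with T-5224 and 9.63 with coQ10. All of these genes were lower in both BAPN libraries than in every other library. Over all tested genes, 51.1% were lower in both BAPN libraries than in both normal ones, and the share below every other library was not counted. Exons of Hoxb2 and Hoxb3 overlap the antisense gene Hoxb3os by 953 and 2250 bases.

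Anterior genes of clusters C and D were lower in level and differed from each other. Hoxc4 had 1.9 and 0.75 FPKM in normal, 7.32 and 5.02 with BAPN alone, 1.56 and 2.92 with TPA, 0.91 and 4.2 with T-5224 and 0.68 with coQ10, so that it was highest in the BAPN libraries, next in T-5224 replicate 2. Hoxd4 had 1.73 and 3.18 FPKM in normal, 1.52 and 0.56 with BAPN alone, 1.19 and 2.14 with TPA, 0.94 and 1.16 with T-5224 and 0.51 with coQ10, so that both BAPN libraries lay below both normal ones, as for the A and B genes, but the coQ10 and T-5224 libraries were low as well. Hoxd3 ranged from 0 to 1.06 FPKM, with overlap between normal and BAPN.

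Among the middle genes, Hoxa5, known for roles in lung and neck development, was the highest member by mean FPKM and had 13.39 and 18.39 FPKM in normal, 8.98 and 10.05 with BAPN alone, 10.87 and 12.2 with TPA, 16.75 and 78.64 with T-5224 and 15.1 with coQ10. The value of 78.6 in T-5224 replicate 2 was above all others, and in the remaining 8 libraries Hoxa5 lay between 8.98 and 18.4. For Hoxb5 the values were 5.08 and 13.94 FPKM in normal, 1.32 and 0.78 with BAPN alone, 2.44 and 2.89 with TPA, 6.4 and 9.03 with T-5224 and 4.96 with coQ10. The BAPN libraries were lowest for both of these genes. Hoxa7 had 3.02 and 10.21 FPKM in normal, 7.01 and 4.97 with BAPN alone, 1.92 and 3.18 with TPA, 7.53 and 13.28 with T-5224 and 4.42 with coQ10, Hoxa6 did not exceed 2.54 FPKM, and for Hoxa7 normal and BAPN overlapped.

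Hoxb6, Hoxb7 and Hoxb8 differed widely between the 2 normal libraries. Hoxb6 had 2.38 and 12.66 FPKM in normal, 5.4 and 3.1 with BAPN alone, 1.26 and 1.51 with TPA, 10.21 and 0.83 with T-5224 and 3.02 with coQ10. Hoxb7 had 1.6 and 8.12 FPKM in normal, 7.72 and 5.69 with BAPN alone, 1.5 and 2.06 with TPA, 5.27 and 4.79 with T-5224 and 3.16 with coQ10. Hoxb8 had 1.4 and 5.28 FPKM in normal, 2.69 and 1.45 with BAPN alone, 0.94 and 1.53 with TPA, 6.38 and 2.93 with T-5224 and 2.37 with coQ10. Normal replicate 2 exceeded normal replicate 1 for each of these 3 genes, and both BAPN values lay between them. The level of Hoxb7 was lower in both TPA libraries than in any library other than normal replicate 1.

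Cluster C and D middle genes differed from these. Hoxc6, a gene of the thoracic level, had 1.51 and 5.36 FPKM in normal, 3.87 and 4.03 with BAPN alone, 1.5 and 3.8 with TPA, 2.32 and 0.59 with T-5224 and 1.16 with coQ10, with overlap between normal and BAPN. Hoxc8, also known from thoracic patterning, stayed under 5 FPKM but stood at 0.3 and 1.26 FPKM in normal, 3.4 and 4.23 with BAPN alone, 0.2 and 1.09 with TPA, 0.74 and 1.84 with T-5224 and 0.38 with coQ10, so that both BAPN libraries exceeded all others. Hoxd8 had 5.76 and 4.23 FPKM in normal, 5.45 and 6.07 with BAPN alone, 6.17 and 6.73 with TPA, 2.43 and 19.75 with T-5224 and 1.8 with coQ10. T-5224 replicate 2 was highest for Hoxd8 and the coQ10 library lowest. Hoxc5 ranged from 0.3 to 2.51 FPKM.

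Among the posterior genes, cluster C and cluster D members peaked in different libraries. Hoxc9 (chr15:102977032-102984444), known for motor neuron identity at the thoracic level, had 0 and 0.5 FPKM in normal, 3.85 and 8.62 with BAPN alone, 0.24 and 0.65 with TPA, 0.26 and 1.38 with T-5224 and 0 with coQ10. Both BAPN libraries were above all others, and Hoxc9 was not listed in normal replicate 1 or in the coQ10 library. Hoxc10, known for lumbar levels, had 0.05 and 0.2 FPKM in normal, 0.34 and 3.23 with BAPN alone, 0.09 and 0.41 with TPA, 0 and 0.81 with T-5224 and 0.05 with coQ10, and only BAPN replicate 2 exceeded 1 FPKM. The gene below Hoxc9 in number, Hoxc8, thus separated the BAPN libraries from the others more evenly than Hoxc10, which rested on 1 of the 2.

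The posterior D genes are best known from limb and lower trunk patterning, and Hoxd9 and Hoxd10 had their highest values in T-5224 replicate 2. Hoxd9 had 0.95 and 2.63 FPKM in normal, 0.57 and 1.93 with BAPN alone, 3.38 and 3.29 with TPA, 0.73 and 12.56 with T-5224 and 0.59 with coQ10. Hoxd10 had 0.05 and 0.05 FPKM in normal, 1.85 and 1.37 with BAPN alone, 0.54 and 0.05 with TPA, 0 and 8.13 with T-5224 and 0 with coQ10. Hoxd9 did not separate normal from BAPN, whereas Hoxd10 was listed at 0.05 in both normal libraries, about 1 fragment, and above 1 in both BAPN libraries. Of the remaining posterior genes, Hoxb9 was highest in BAPN replicate 1 at 2.85 FPKM, Hoxa9 and Hoxa10 did not exceed 1.9 and 0.93 FPKM, and Hoxa13 and Hoxd13 did not exceed 0.09 FPKM.

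**Figure D3:**
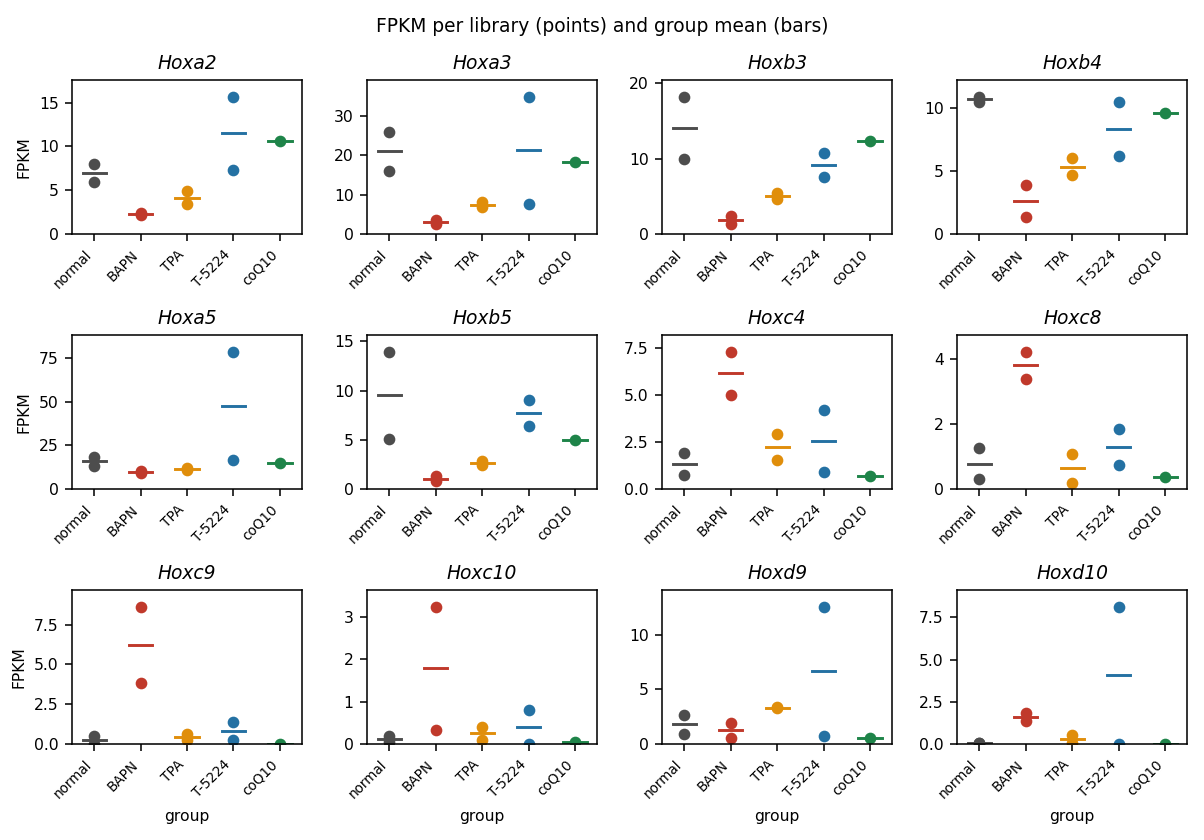
FPKM (y axis, linear, from 0) of 12 Hox genes by group (x axis), with 1 point per library and a bar at the group mean. Hoxa2, Hoxa3, Hoxb3, Hoxb4 and Hoxb5 are lowest in BAPN, Hoxc4, Hoxc8 and Hoxc9 are highest in BAPN, and Hoxa5, Hoxd9 and Hoxd10 show 1 high point, from T-5224 replicate 2.

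Differences were tested with limma on log2(FPKM + 1), for the 12997 genes with a mean of at least 1 FPKM over the 9 libraries, with Benjamini-Hochberg adjustment over all of them and a threshold of 0.05. This scale understates changes of genes with low values. The 22 tested Hox genes were 9 anterior, 9 middle and 4 posterior ones. The 8 others were Hoxa6, Hoxa9, Hoxa10, Hoxa13, Hoxc5, Hoxc10, Hoxd3 and Hoxd13.

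BAPN was compared with normal to ask how the aorta fed BAPN differed from that of mice drinking water. Hoxb3 fell by 2.37 (SE 0.38) on this log2 scale, with group means of 14.1 ± 5.82 FPKM in normal and 1.86 ± 0.73 FPKM in BAPN (SD, n = 2 each) and an adjusted p of 0.0458. It was the only Hox gene called, 1 of 22, and 3.26% of all tested genes were called in either direction. The next smallest adjusted p-values belonged to Hoxb5 (log2 change -2.23, SE 0.47, adjusted p = 0.0527), Hoxc9 (2.48, SE 0.55, adjusted p = 0.0552), Hoxb4 (-1.79, SE 0.44, adjusted p = 0.0600) and Hoxa4 (-1.61, SE 0.41, adjusted p = 0.0635), and none of these passed. Before adjustment 10 of the 22 had a p under 0.05, 6 anterior genes and Hoxb5 with lower values in BAPN and Hoxc4, Hoxc8 and Hoxc9 with higher values, against 4216 of the 12997 tested genes.

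The direction of the difference followed the paralogue number more than the cluster, apart from cluster C. Among the 9 anterior genes 8 had a negative log2 change, with a median of -1.54 over the 9 and Hoxc4 (1.65, SE 0.57, adjusted p = 0.107) as the exception. Among the 9 middle genes 5 were positive and 4 negative, with a median of 0.04. Among the 4 posterior genes 3 were positive, with a median of 1.10, and Hoxd9 was at -0.31. Over all 22 the median was -0.39, and over all tested genes it was -0.51. Against that median of all genes, 8 of 9 anterior genes lay below, 7 of 9 middle genes above and 4 of 4 posterior genes above. All 8 negative anterior changes and those of Hoxa5 and Hoxb5, and the positive ones of Hoxc4, Hoxc8, Hoxc9 and Hoxd10, kept their sign under 4 other scalings, whereas the signs of the 8 other tested members changed under at least 1.

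Libraries of the 2 groups did not overlap for 15 of the 22 members, 5 with higher values in BAPN and 10 with lower values. Over all tested genes 15.0% did not overlap with higher values and 51.1% with lower values. The share of members with lower values (10 of 22) was thus close to that of all genes. The call of Hoxb3 did not pass when any normal, BAPN or TPA library was left out, when the filter on low values was lowered to 0.1 FPKM or removed, or under 3 of 4 other scalings, with adjusted p-values from 0.00145 to 0.246 over all alternatives. Leaving out either T-5224 library raised the number of called members from 1 to 9, but also the share of all tested genes called, to 28.0 and 28.2%. Rescaling each library to TPM (the same values brought to a common total per library) raised the count to 11 of 22 and the share of all tested genes to 74.1%. Leaving out normal replicate 1 alone gave 0, and leaving it out together with T-5224 replicate 2, a choice made after seeing the data, gave 11, with 31.0% of all tested genes called. The number of called members thus moved with the number called over all genes.

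**Figure D4:**
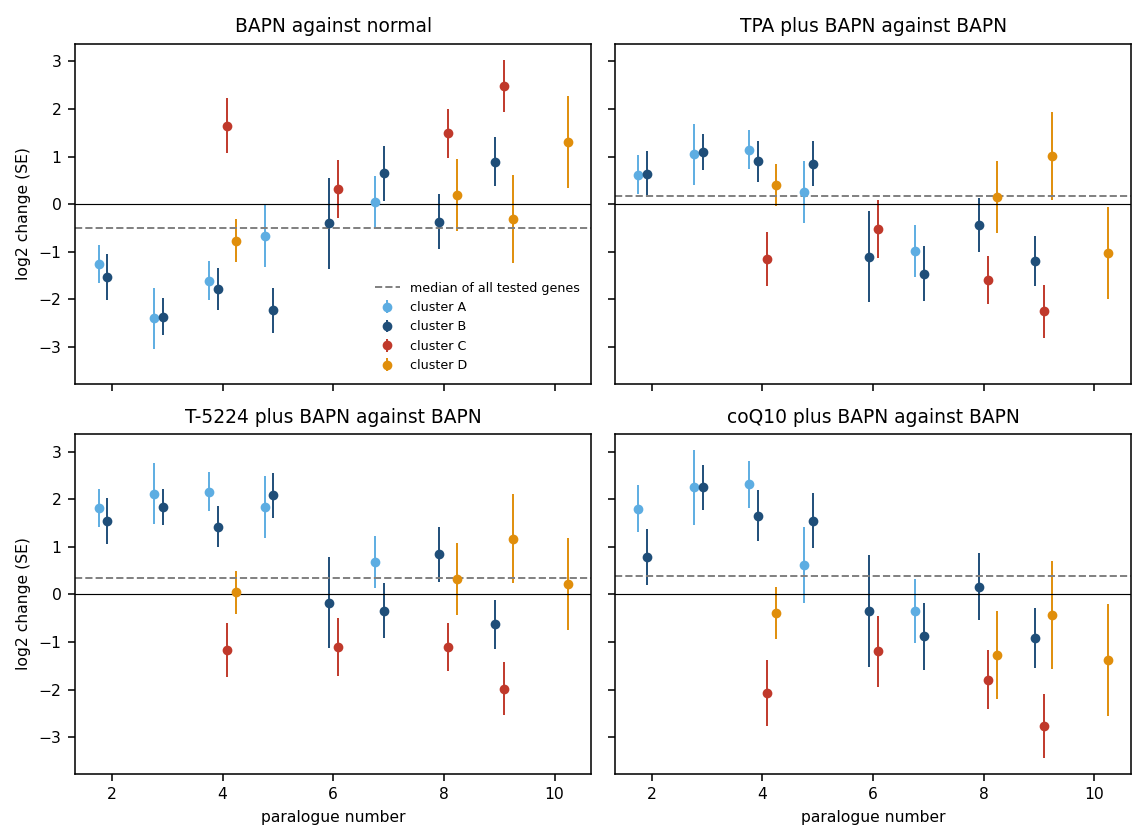
Each point is the log2 change on the log2(FPKM + 1) scale (y axis, bars are SE from limma) of 1 Hox gene, 21 of the 22 tested being shown, against its paralogue number (x axis, shifted slightly by cluster), in 4 comparisons, with a dashed line at the median of all tested genes. In BAPN against normal the points run from negative changes at numbers 2 to 5, apart from Hoxc4, to 1.31 for Hoxd10 and 2.48 for Hoxc9, and the other 3 panels share the BAPN libraries as control, so they are not independent of each other or of the first.

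Markers of nerve tissue were highest in the 2 BAPN libraries, but not in T-5224 replicate 2. The 9 markers of neurons and Schwann cells had a summed FPKM of 157 and 73.6 in normal, 1075 and 1178 with BAPN alone, 125 and 466 with TPA, 82.8 and 177 with T-5224 and 77.1 with coQ10. All 9 were listed in every library except normal replicate 2, where 1 of the 9 was at 0. Dbh, which makes noradrenaline, had 3.78 and 0.2 FPKM in normal, 274.65 and 269.59 with BAPN alone, 3.03 and 107.56 with TPA, 0.26 and 10.81 with T-5224 and 0.22 with coQ10, and Hand2, a factor of sympathetic neurons and of the heart, had 16.73 and 2.49 FPKM in normal, 79.4 and 104.52 with BAPN alone, 8.67 and 23.95 with TPA, 13.59 and 18.66 with T-5224 and 13.96 with coQ10. The adrenal gland list was near 0 in all libraries, with a summed FPKM of 1.71 to 4.29 over the 5 of its 7 markers that were listed, and the kidney list reached 2.13 at most. The 14 skeletal muscle markers had a summed FPKM of 2943 and 21.0 in normal, 3551 and 2080 with BAPN alone, 8452 and 15649 with TPA, 22.2 and 10012 with T-5224 and 56.0 with coQ10, and all were listed in all libraries except Myh2 in T-5224 replicate 1. Thus the 3 libraries with posterior shares above 12%, both BAPN libraries and T-5224 replicate 2, were also high in skeletal muscle markers, but normal replicate 1 and both TPA libraries were high in them as well with posterior shares under 7%. The part of nerve, muscle and smooth muscle RNA in the Hox differences was not tested.

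**Figure D5:**
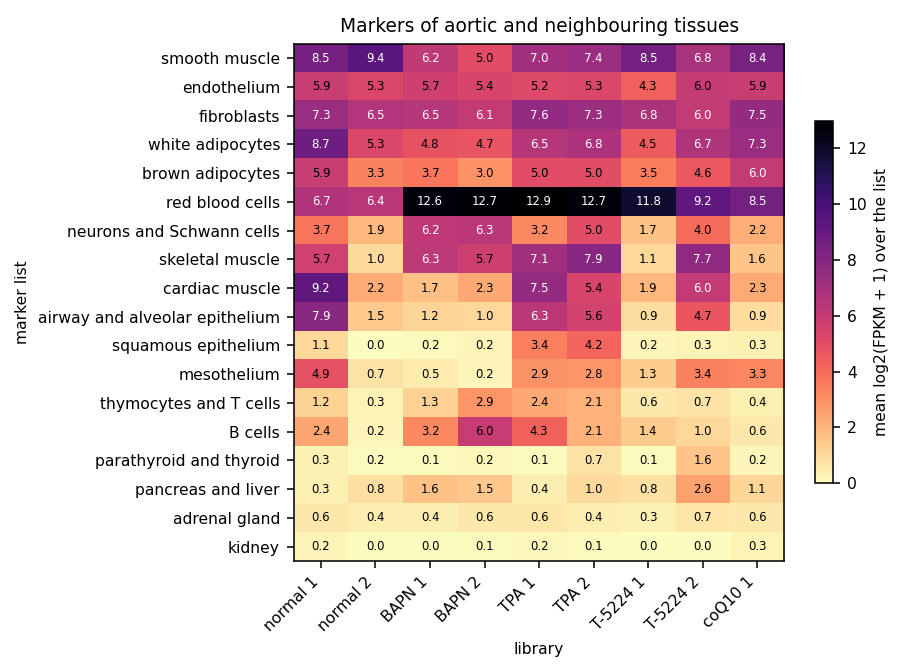
Colour and printed numbers give the mean log2(FPKM + 1) over each list of cell type markers (rows) in the 9 libraries (columns). Smooth muscle is lowest in the 2 BAPN columns at 6.15 and 5.02, neurons and Schwann cells are highest there at 6.18 and 6.33, and airway and alveolar epithelium reaches 7.85 in normal replicate 1.

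TPA, T-5224 and coQ10 were each compared with BAPN to ask what the added agent did on top of BAPN, and these 3 comparisons share the 2 BAPN libraries, as does BAPN against normal. A direction opposite to that of BAPN against normal is therefore partly built in, and the values are given side by side only. With TPA 0 of 22 Hox genes were called by limma, where 0.0385% of all tested genes were, with 5 of 22 under an unadjusted p of 0.05 and a smallest adjusted p of 0.341, against 1320 of the 12997 tested genes under 0.05 before adjustment. The median change was 0.63 over the 9 anterior, -0.51 over the 9 middle and -1.11 over the 4 posterior genes. Hoxc9 had a log2 change of -2.26 (SE 0.55), Hoxb7 of -1.47 (SE 0.58) and Hoxa4 of 1.14 (SE 0.41), without passing. When only the libraries of these 2 groups were fitted, 2 of 22 members, Hoxb7 and Hoxc9, passed, and so did 7.48% of all tested genes.

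With T-5224 0 of 22 members were called, where 0.0308% of all tested genes were, with 9 of 22 under an unadjusted p of 0.05 and a smallest adjusted p of 0.148, against 2379 of the 12997 under 0.05 before adjustment. The median change was 1.55 over the anterior, 0.32 over the middle and -0.21 over the posterior genes. The 2 T-5224 libraries were titled 2 weeks (replicate 1) and 3 weeks (replicate 2), so time cannot be told apart from replicate here. Their difference entered the pooled limma spread as spread between replicates. The Hox profiles of the 2 T-5224 libraries differed from each other more than those of any other pair of replicates. They shared 49.2% (the sum over genes of the lower of the 2 shares), compared with 88.6% for the TPA pair, 80.2% for the normal pair and 78.4% for the BAPN pair. T-5224 replicate 1 shared 83.9% with the coQ10 library and 81.1% with normal replicate 2. T-5224 replicate 2 shared most, 67.2%, with TPA replicate 2. The 2 libraries also differed in markers of other tissues, with 23.2 in replicate 1 against 5023 summed FPKM in replicate 2 over the airway and alveolar list, 47.9 against 1570 over cardiac muscle, 1179 against 20028 over 8 white adipocyte markers, and 0 against 247.89 FPKM for Pth, the parathyroid hormone gene. The part of these tissues in the Hox difference between the 2 libraries was not tested. Without replicate 1, Hoxa5 was called, with 0.654% of all tested genes, and without replicate 2 the count stayed at 0. Rescaled to TPM 8 members were called, namely Hoxa2, Hoxa3, Hoxa4, Hoxa5, Hoxb2, Hoxb3, Hoxb4 and Hoxb5, where 23.9% of all tested genes were called and their median change was 0.93 instead of 0.35.

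With coQ10, a single library assumed to vary like the other groups, 0 of 22 members were called, where 0.0154% of all tested genes were, with 9 of 22 under an unadjusted p of 0.05 and a smallest adjusted p of 0.185, against 2572 of the 12997 under 0.05 before adjustment. The median change was 1.81 over the anterior, -0.35 over the middle and -1.15 over the posterior genes. Hoxa3 had a log2 change of 2.26 (SE 0.79) and Hoxc9, not listed in the coQ10 library, of -2.77 (SE 0.68), neither of which passed. The coQ10 profile shared 85.5% with normal replicate 1 and 76.9% with normal replicate 2, but 53.7 and 46.3% with the BAPN libraries. Rescaled to TPM, 9 of 22 members and 55.9% of all tested genes were called, and the median change of all genes was 1.63 instead of 0.39.

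TPA and T-5224, which act on AP-1 in opposite directions, were compared with each other in the fit of all 5 groups, in which the BAPN libraries entered the estimate of the spread but not the difference. By limma 0 of 22 members were called, where 0.0154% of all tested genes were, with 5 of 22 under an unadjusted p of 0.05 and a smallest adjusted p of 0.443, against 1413 of the 12997 under 0.05 before adjustment. The 5 became 4 when the 2 groups were fitted alone and 1 to 8 with 1 library left out, 2 without either BAPN library. Values were lower with TPA for 19 of 22 members, with a median of -0.83, compared with -0.08 over all tested genes, and the sign of 6 members changed under another scaling. Without T-5224 replicate 1, 3 members were called, Hoxa5, Hoxd8 and Hoxd10, where 5.12% of all tested genes were called. Replicate 2, the T-5224 library then left, is the one with the highest values of these 3 genes.

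Hox proteins bind DNA together with TALE cofactors of the Pbx, Meis and Pknox families, and all 9 of these were listed. Of the 8 tested, 0 were called by limma in any of the 5 comparisons, with 1 to 4 under an unadjusted p of 0.05 in each. Pbx3 had 8.32 and 8.33 FPKM in normal, 2.49 and 3.61 with BAPN alone, 4.24 and 3.48 with TPA, 7.23 and 7.23 with T-5224 and 8.47 with coQ10, and Meis1 had 9.85 and 9.89 FPKM in normal, 4.52 and 4.47 with BAPN alone, 7.79 and 6.72 with TPA, 8.34 and 2.72 with T-5224 and 6.84 with coQ10. Both were lower in the 2 BAPN libraries than in the normal ones, with log2 changes of -1.22, SE 0.28, adjusted p = 0.0562 for Pbx3 and -0.98, SE 0.44, adjusted p = 0.174 for Meis1. The median over the 8 was -1.01 in BAPN against normal, where that of all genes was -0.51.

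Retinoic acid sets the head-end limits of Hox genes in the embryo. Of the 15 tested genes of its pathway 3 fell in BAPN against normal and 0 rose, where 2.36% of all tested genes fell. These were Dhrs3, a retinaldehyde reductase that limits retinoic acid (-2.08, SE 0.31, adjusted p = 0.0458), and the nuclear receptors Rarg (-1.97, SE 0.34, adjusted p = 0.0474) and Rxra (-1.75, SE 0.32, adjusted p = 0.0475). Dhrs3 had 76.12 and 90.55 FPKM in normal, 23.27 and 15.28 with BAPN alone, 44.31 and 45.18 with TPA, 75.99 and 93.13 with T-5224 and 80.46 with coQ10, so its values in the 2 BAPN libraries were below all others. All 3 calls were lost when any 1 normal, BAPN or TPA library was left out. They were also lost without a filter, under median-of-ratios scaling, after rescaling without haemoglobin genes, with the 2 groups fitted alone and with the replicate block. Rarg and Rxra were lost as well with a pseudocount of 0.1, a filter of 0.1 FPKM and quantile normalization. Over the other pseudocount, filters and scalings, limma adjusted p-values ran from 0.00145 to 0.133. All these alternatives were applied to the called genes of this and the next lists after seeing the data. None of the 15 was called by limma in the other 4 comparisons, with 3 to 6 under an unadjusted p of 0.05 in each, and their median in BAPN against normal was -0.85.

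Polycomb and Trithorax proteins keep Hox genes silent or active. Of the 26 tested, 1 fell in BAPN against normal, the Polycomb subunit Phc1 (-1.61, SE 0.26, adjusted p = 0.0458), and 0 rose. This is close to the 2.36% of all tested genes that fell. The call was lost when any 1 normal, BAPN or TPA library was left out. It was also lost without a filter or with one at 0.1 FPKM, and under every other scaling except TPM. Fitting the 2 groups alone and the replicate block lost it as well. Phc1 had 14.63 and 13.09 FPKM in normal, 4.29 and 3.49 with BAPN alone, 7.21 and 7.91 with TPA, 10.94 and 11.47 with T-5224 and 13.89 with coQ10. The median over the 26 was -0.70, and the list had 0 calls by limma in the other 4 comparisons, with 3 to 4 under an unadjusted p of 0.05 in each. Of the 17 tested neighbours of the 4 clusters 0 were called by limma in any comparison, with 1 to 5 under an unadjusted p of 0.05 in each, and their median in BAPN against normal was -0.18. Calcoco1, next to cluster C, had a log2 change of -1.42, SE 0.29, adjusted p = 0.0513 and did not pass, and Nfe2, a blood cell factor near the same cluster, had 2.71, SE 0.75, adjusted p = 0.0735, higher in BAPN without passing.

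Other factors that mark position were also measured. The Cdx genes, upstream activators of posterior Hox genes, were almost silent, with Cdx2 and Cdx4 listed in no library and Cdx1 at 0.06 FPKM in TPA replicate 2 alone. Of the 5 tested genes of the Cdx and Gdf11 list 0 were called by limma in any comparison, with 0 to 2 under an unadjusted p of 0.05 in each. Of 13 tested cardiac and outflow factors 1 fell in BAPN against normal, Gata6 (-2.65, SE 0.50, adjusted p = 0.049), a factor of outflow tract and arterial smooth muscle, and 0 rose, where 2.36% of all tested genes fell. That call too was lost without any 1 normal, BAPN or TPA library. It was also lost with a pseudocount of 0.1, without a filter or with one at 0.1 FPKM, and under every other scaling except TPM. Fitting the 2 groups alone and the replicate block lost it as well. Hand1 (4.88, SE 1.00, adjusted p = 0.0519) and Hand2 (3.55, SE 0.79, adjusted p = 0.0552) were higher in BAPN without passing. Gata6 had 21.33 and 38.77 FPKM in normal, 4.65 and 2.97 with BAPN alone, 11.97 and 8.94 with TPA, 36.77 and 14.73 with T-5224 and 38.51 with coQ10. Of the 5 tested hindlimb and lower body factors 0 were called by limma in any comparison, with 1 to 2 under an unadjusted p of 0.05 in each. The Hox cluster genes that do not code for protein, from Hotair to Mir196b, were listed in no library.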

How the data were processed

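The values are FPKM as deposited by the authors in a separate table for each library, with 2 decimals and without the genes at 0, which were entered here as 0. The build mm10 is named in the submitters' processing notes, whereas the aligner, counter and annotation were not stated. Libraries were made with a TruSeq kit from Trizol extracts, per the labels' protocols. Members and lists were chosen with earlier results of these data known. Every listed Hox gene entered the counts and sums. Values in all libraries are given for those that reached 5 FPKM, for others on which a result turned (Hoxc8, Hoxc10) and for Hoxd4. Of each other list, up to 4 genes were taken by smallest p or highest level. Some genes that this rule takes are not reported here by name.

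Shares were taken of each library's summed Hox FPKM. Differences were tested with limma 3.58.1 (R 4.3.3) on log2(FPKM + 1), with 5 groups, 9 libraries, 4 residual degrees of freedom, an intensity trend, a filter at a mean of 1 FPKM, two-sided p-values and Benjamini-Hochberg adjustment over all 12997 tested genes. The script was tested on simulated data. Positions came from RefSeq GRCm38.p6, exons and transcript lengths from GENCODE M21. The depth per library was estimated as the lowest peak of FPKM times length, within a preset range, among genes with 1 annotated transcript. Tables were handled with python 3.11.15, pandas 2.3.3, numpy 2.4.6 and matplotlib 3.10.9.

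Alternatives were another pseudocount (0.1), other filters and scalings, a fit of 2 groups only, a replicate block and leaving out each library.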

Additional observations from a re-analysis of the deposited data

How the results depend on the processing

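Called Hox genes in BAPN against normal (1 as reported) numbered 0 without a filter, with a filter of 0.1 FPKM, with median-of-ratios scaling, after rescaling without haemoglobin genes, with quantile normalization and when the 2 groups were fitted alone, 11 after rescaling to TPM, and 0 to 9 when 1 library was left out. In TPA against BAPN the count of 0 became 2 when the 2 groups were fitted alone. In T-5224 against BAPN it became 8 after rescaling to TPM, and it was 0 to 1 with 1 library left out. In coQ10 against BAPN it became 9 after rescaling to TPM. In TPA against T-5224 it was 0 to 3 with 1 library left out. Without both normal replicate 1 and T-5224 replicate 2, chosen after seeing the data, the counts were 11, 2, 8, 10 and 3 in the 5 comparisons in that order. The shares of all tested genes called in the same fits were 31.0, 7.87, 17.3, 22.8 and 4.49%, in the same order. Calls thus rose over all genes as well as among Hox genes, and whether they rose more among Hox genes was not tested. The fits left 1 library each in the normal and T-5224 groups. Rescaling to TPM moved the median change of all genes in BAPN against normal from -0.51 to -1.92, and leaving out a library changes the residual degrees of freedom. The cause of the other changes in the counts was not tested.

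The replicate block, fitted to the 8 numbered libraries, gave 0 called Hox genes in BAPN against normal, TPA against BAPN, T-5224 against BAPN and TPA against T-5224, and coQ10, a single library, had no such fit. Correlations of same-numbered deviations ran from -0.44 to 0.18 over 6 pairs of groups. With so few libraries per group, they cannot show whether same-numbered libraries shared a batch.

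The posterior share was 15.2 percentage points higher in BAPN than in normal, and 8.65 to 17.2 under other ways of summing, 9.75 to 20.7 with 1 library left out. The cluster C share was 23.0 points higher, and 16.4 to 26.0 under other sums, 18.3 to 27.7 with 1 left out. The middle share was 14.3 points higher, 3.55 when summed as log2(FPKM + 1), and 8.72 to 19.9 with 1 left out. Middle genes summed to 36.23 and 82.38 FPKM in normal and 48.02 and 41.67 with BAPN alone, so the higher middle share does not show higher values. The 38 single-gene changes with an unadjusted p under 0.05 reversed in none of the alternatives run. They were picked by that p-value in these same data, so a kept sign gives them no separate support. Of all 22 tested members, the sign changed under at least 1 of the 4 other scalings for 8 in BAPN against normal. It did so for 3 in TPA, 5 in T-5224 and 6 in coQ10 against BAPN, and for 6 in TPA against T-5224. Values near 0.05 FPKM rest on about 1 fragment, so the absence of posterior genes from a library is not shown.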
